A study of Mus musculus with 12 samples.

Results

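Genes of the extracellular matrix and of hepatic stellate cells were followed in whole livers of mice with a conditional knockout of the autophagy gene Atg7. The 42 genes, taken from a list of symbols, code for collagens and other matrix proteins, the enzymes that cross-link and cut them, contractile proteins, and receptors and markers of stellate cells. Of these, 39 had probes under their symbol on the MouseWG-6 v2.0 array (80 probes) and 35 were tested among 10711 genes in all. Postn, Thbs1, Lamb1 and Col5a2 had probes but too little signal, and Col6a3, Fbn1 and Loxl2 had no probe named by the platform annotation.

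The 12 livers came from mice 2 months old in which both Atg7 alleles are floxed. Atg7 KO mice (Alb-Cre:Atg7 FF, 4 livers) express Cre from the albumin promoter, which is active in hepatocytes, Olig1-Cre mice (Olig1-Cre:Atg7 FF, 4 livers) from Olig1, a gene of the oligodendrocyte lineage, and the 4 controls (Atg7 FF) carry no Cre. The Atg7 KO group was male throughout (4 livers), the Olig1-Cre and control groups each held 1 male and 3 females, and the controls came from both the Alb-Cre and the Olig1-Cre line. Each of the 2 chips carried 2 livers of every group. The labels list both Cre groups as conditional knockouts. The Atg7 probe was detected on 2 of 12 arrays and did not check the genotype. The share of probes detected on an array was 34.2% to 37.8% in controls, 39.1% to 41.9% in Olig1-Cre livers and 39.8% to 43.9% in Atg7 KO livers. The male control was lowest, and every control lay below every liver of both Cre groups.

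Stellate cells lie between hepatocytes and the sinusoidal endothelium, store vitamin A as retinyl esters, and are the main source of scar matrix in the injured liver. When activated they lose their retinoid stores, become contractile myofibroblasts, and lay down fibrillar collagens together with inhibitors of the enzymes that would degrade them. In bulk RNA of this kind, more stellate cells or other matrix-producing cells and more RNA per cell cannot be told apart.

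As a reference for the regulation of these genes, 300-base windows around the start of transcription (250 bases before, 50 after; RefSeq, GRCm38.p6) were read for the 26 members that the table holds, 29 windows in all. The 5 windows below belong to genes that rose in Atg7 KO livers. The type IV collagen genes Col4a1 and Col4a2 are transcribed away from each other, and their windows share the 78 bases in capitals.
Col4a1, chr8:11312777-11313076, minus strand: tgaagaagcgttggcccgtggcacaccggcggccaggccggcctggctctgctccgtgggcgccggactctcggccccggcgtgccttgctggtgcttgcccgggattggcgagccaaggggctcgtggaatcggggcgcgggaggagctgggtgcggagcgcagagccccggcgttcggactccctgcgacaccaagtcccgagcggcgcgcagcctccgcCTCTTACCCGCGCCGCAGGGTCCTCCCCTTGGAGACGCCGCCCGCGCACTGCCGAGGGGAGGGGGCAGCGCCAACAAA
Col4a2, chr8:11312555-11312854, plus strand: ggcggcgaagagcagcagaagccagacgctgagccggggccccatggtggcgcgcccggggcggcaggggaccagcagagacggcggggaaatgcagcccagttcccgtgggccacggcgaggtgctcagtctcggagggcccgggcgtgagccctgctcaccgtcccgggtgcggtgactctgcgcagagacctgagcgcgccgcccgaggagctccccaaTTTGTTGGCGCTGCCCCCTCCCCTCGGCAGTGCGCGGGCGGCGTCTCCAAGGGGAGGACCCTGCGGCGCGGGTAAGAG
The motif CATTCC, bound by the Tead partners of Yap, was searched on both strands, without regard to overlap with any other motif. It was found in 6 of the 29 member windows and in 14.7% of all 32851 windows. The next 3 windows show it in capitals, as CATTCC in Col3a1 and as its reverse complement GGAATG in Timp1 and Acta2.
Col3a1, chr1:45311288-45311587, plus strand: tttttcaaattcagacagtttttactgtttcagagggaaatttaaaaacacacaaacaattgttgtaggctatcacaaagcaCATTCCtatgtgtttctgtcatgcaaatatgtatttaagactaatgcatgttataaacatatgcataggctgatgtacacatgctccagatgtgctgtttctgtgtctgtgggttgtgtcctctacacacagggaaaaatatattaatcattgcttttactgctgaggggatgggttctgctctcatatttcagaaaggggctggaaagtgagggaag
Timp1, chrX:20869916-20870215, plus strand: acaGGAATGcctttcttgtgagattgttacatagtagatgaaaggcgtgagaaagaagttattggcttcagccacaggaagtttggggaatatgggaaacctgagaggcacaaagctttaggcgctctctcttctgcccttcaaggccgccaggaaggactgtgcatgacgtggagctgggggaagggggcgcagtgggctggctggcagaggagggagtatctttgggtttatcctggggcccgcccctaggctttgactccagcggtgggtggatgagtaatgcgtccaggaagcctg
Acta2, chr19:34255324-34255623, minus strand: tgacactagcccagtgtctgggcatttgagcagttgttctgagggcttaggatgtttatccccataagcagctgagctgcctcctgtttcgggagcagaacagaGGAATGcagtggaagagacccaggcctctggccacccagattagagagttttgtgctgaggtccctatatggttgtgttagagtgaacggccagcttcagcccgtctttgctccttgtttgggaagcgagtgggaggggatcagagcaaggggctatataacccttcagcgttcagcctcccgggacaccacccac
It begins 168 bases before the start of transcription in Col3a1, 247 in Timp1 and 146 in Acta2. The other windows that held it belong to Col6a2, Col18a1 and Lrat. Of these genes Col18a1 fell in Atg7 KO livers, and Col6a2 and Lrat were called neither higher nor lower (threshold below). The windows shown are thus only those of genes that rose, and a link of the motif to the changes was not tested. These matches describe the sequence and do not show binding.

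Levels are given as log2 signal after background correction and quantile normalization, replicates 1 to 4 of a group in that order, and a gene with several probes takes their median. A gene was called at an adjusted p under 0.05 (limma, Benjamini-Hochberg over 10711 genes). The offset added before the log compresses the changes of dim genes. In Atg7 KO livers 27 of the 35 tested members rose and 1 fell against controls, while 19.5% of all tested genes were called higher and 15.3% lower. The median log2 fold change of the members was 1.19, that of all genes -0.01. In 24 members all 4 Atg7 KO livers lay above all 4 controls, which held for 19.4% of all genes. In Olig1-Cre livers 13 members rose and 2 fell, against 12.8% and 8.47% of all genes, with a median of 0.54 (all genes 0.00), and 14 members had all 4 livers above the controls (14.1% of all genes). Quantile normalization without background correction gave medians of 0.67 in Atg7 KO and 0.24 in Olig1-Cre livers. A cubic spline, the kind of normalization that the methods name, was likewise fitted here without background correction. With that spline the medians were 0.68 in Atg7 KO and 0.25 in Olig1-Cre livers. The calls of Acta2, Col1a2, Pdgfrb and Col6a1 in Atg7 KO livers (adjusted p from 0.0516 to 0.091, limma) and of Col5a1 and Tagln in Olig1-Cre livers (0.0509 and 0.0828) were then lost. A member could pass the filter on dim probes through the group in which it is bright, so the 35 are not a neutral sample of the 42. The plot of fold changes by role shows the members in both comparisons.

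**Figure D1:**
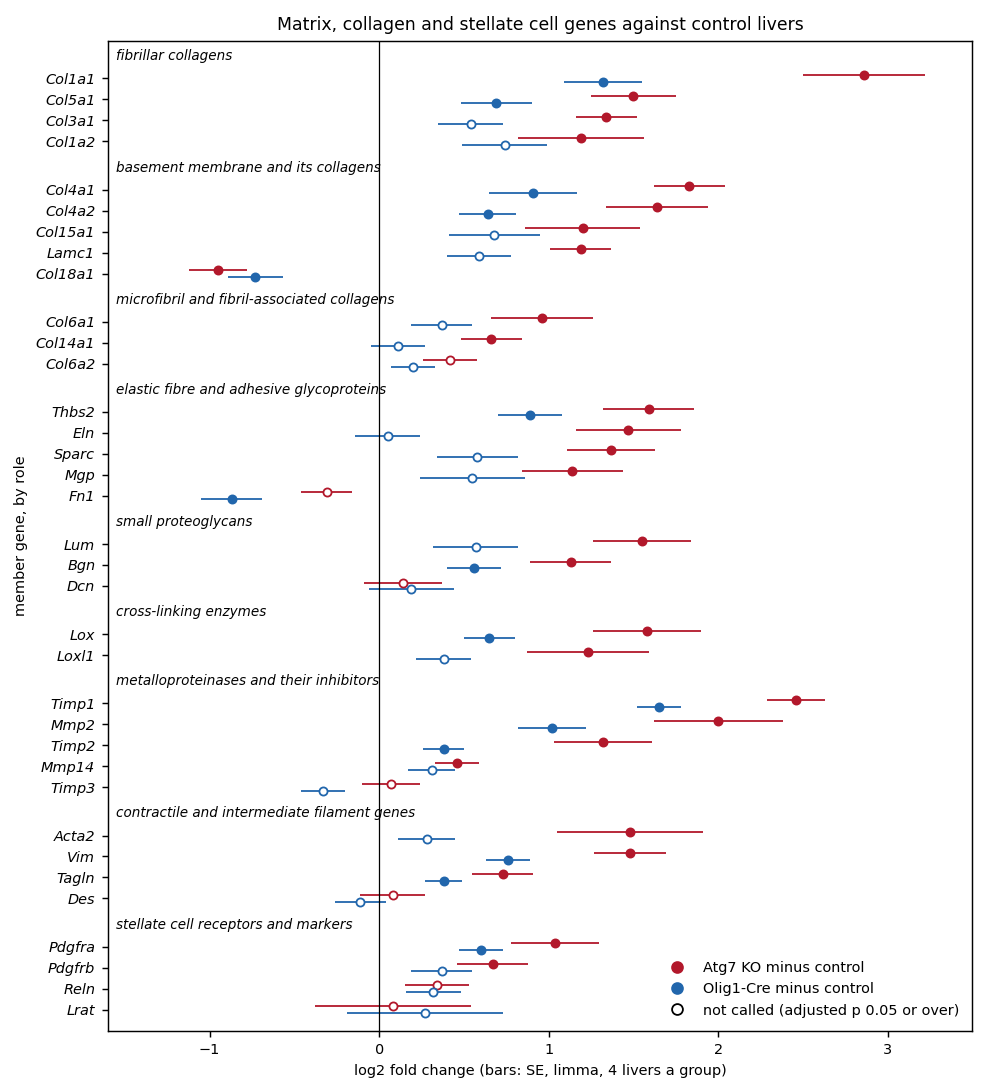
Log2 fold change of the 35 tested members in Atg7 KO livers (red) and Olig1-Cre livers (blue) against the same 4 controls, with the standard error from limma, grouped by role. Filled circles were called; Col1a1 stands farthest right at 2.86 in Atg7 KO livers, and Col18a1 is called on the left in both groups.

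The fibrillar collagens, which form the tensile fibres of scar tissue, rose in Atg7 KO livers in all 4 members tested. Col1a1, the main chain of type I collagen, measured 8.73, 7.49, 7.74 and 6.73 in Atg7 KO livers, 6.49, 5.58, 6.14 and 6.32 in Olig1-Cre livers, and 5.18, 4.34, 5.01 and 4.73 in controls. The 3 groups did not overlap, Atg7 KO replicate 1 was highest, and 1 control array did not detect the probe. It rose by 2.86 ± 0.36 on the log2 scale (SE, adjusted p = 0.000218, limma) in Atg7 KO livers and by 1.32 ± 0.23 (adjusted p = 0.00484) in Olig1-Cre livers, the largest of the members in Atg7 KO livers.

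Col1a2, the partner chain in the type I fibre, measured 5.49, 4.69, 6.88 and 5.29 in Atg7 KO livers, 4.86, 4.62, 5.12 and 5.96 in Olig1-Cre livers, and 4.25, 4.37, 4.53 and 4.43 in controls. No control array detected its probe, so its level in controls is a bound. Atg7 KO livers held at least 1.76-fold more (adjusted p = 0.0299, limma). Such a bound sets the mean of the bright group against the mean, over the arrays of the dim group, of the gene's own value or of the dimmest detected probe, whichever was higher. It holds for quantile-normalized values and carries no error. Replicate 3 alone made up much of the Atg7 KO mean, and the call was lost without Atg7 KO replicate 1 or without any 1 of the 4 controls (adjusted p at most 0.064). The call was also lost with arrays scaled to 1 median of the probes detected on all of them (log2 difference 0.57, adjusted p = 0.287). In Olig1-Cre livers the gene stayed above all controls, at least 1.29-fold, and was not called (adjusted p = 0.0598), though it was with chip as a block (adjusted p = 0.0371).

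Col3a1, the type III chain of young scar, measured 6.79, 5.91, 6.46 and 6.34 in Atg7 KO livers, 5.43, 5.19, 5.55 and 6.12 in Olig1-Cre livers, and 5.0, 4.81, 5.19 and 5.13 in controls. It rose by 1.34 ± 0.18 on the log2 scale in Atg7 KO livers (SE, adjusted p = 0.000364, limma). Olig1-Cre livers lay just above the controls, with 0.54 ± 0.19 (adjusted p = 0.0701, and 0.0399 with chip as a block, where it was called). The 2 Col3a1 probes differed. The probe detected on all 12 arrays gave 1.91 ± 0.34 in Atg7 KO livers (adjusted p = 0.00183, limma over all probes). In Olig1-Cre livers it gave 0.94 ± 0.24 (adjusted p = 0.0264). The other, detected on 5 arrays and no control, gave 0.77 ± 0.13 (adjusted p = 0.00135) and 0.15 ± 0.18 (adjusted p = 0.6). Col5a1, which nucleates type I fibres, rose by 1.5 ± 0.25 in Atg7 KO livers (adjusted p = 0.00119) and by 0.69 ± 0.21 in Olig1-Cre livers (adjusted p = 0.0418), where the groups overlapped and the call was lost in 6 of the 8 fits that left out 1 liver, all but those without Olig1-Cre replicate 2 or control replicate 3 (at most 0.112). Of Col5a2, 1 of its 5 probes was detected, on 2 Atg7 KO arrays and on no other.

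Basement membrane genes rose in 4 of 5 tested members in Atg7 KO livers and the remaining one, Col18a1, fell. Col4a1 measured 10.64, 10.23, 10.59 and 9.82 in Atg7 KO livers, 9.35, 8.71, 9.53 and 10.05 in Olig1-Cre livers, and 8.69, 8.21, 8.80 and 8.28 in controls. Its divergent neighbour Col4a2 measured 9.83, 8.85, 9.26 and 8.26 in Atg7 KO livers, 8.13, 7.79, 8.07 and 8.21 in Olig1-Cre livers, and 7.65, 6.96, 7.62 and 7.41 in controls. In both genes the Atg7 KO livers lay above all controls, with replicate 4 the lowest of them, and in Olig1-Cre livers Col4a1 overlapped the controls (replicate 2 lay below control replicate 3). Col4a1 rose by 1.83 ± 0.21 (SE, adjusted p = 0.000126, limma) and Col4a2 by 1.64 ± 0.30 (adjusted p = 0.00197) on the log2 scale in Atg7 KO livers. In Olig1-Cre livers Col4a1 rose by 0.91 ± 0.26 (adjusted p = 0.0337) and Col4a2 by 0.64 ± 0.17 (adjusted p = 0.0275). Both Olig1-Cre calls were lost without Olig1-Cre replicate 1, 3 or 4 or without control replicate 2 or 4 (adjusted p at most 0.0896 for Col4a1 and 0.0779 for Col4a2).

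Lamc1, the gamma chain shared by most laminins, rose by 1.19 ± 0.18 in Atg7 KO livers (SE, adjusted p = 0.000592, limma), and measured 0.59 ± 0.19 in Olig1-Cre livers (adjusted p = 0.0518). Col15a1, a collagen of the basement membrane zone, rose by 1.20 ± 0.34 (adjusted p = 0.0195), although Atg7 KO replicate 3 (5.57) lay below control replicate 3 (5.62). Its call was lost without Atg7 KO replicate 1 (adjusted p = 0.0528).

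Col18a1, a basement membrane collagen that is also made by hepatocytes, measured 9.72, 9.70, 9.26 and 9.5 in Atg7 KO livers, 9.75, 10.03, 9.59 and 9.71 in Olig1-Cre livers, and 10.55, 10.28, 10.86 and 10.29 in controls. Every liver of both Cre groups lay below every control. The gene fell by 0.95 ± 0.17 on the log2 scale in Atg7 KO livers (SE, adjusted p = 0.00165, limma) and by 0.73 ± 0.16 in Olig1-Cre livers (adjusted p = 0.013). Both probes that passed detection shared the direction, which also held with arrays scaled to 1 median of all probes, where the calls were lost (-0.35, adjusted p = 0.297, in Atg7 KO livers and -0.30, adjusted p = 0.423, in Olig1-Cre livers).

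Of the microfibril and fibril-associated collagens, Col6a1 rose by 0.96 ± 0.30 (SE, adjusted p = 0.0326, limma) and Col14a1 by 0.66 ± 0.18 (adjusted p = 0.0192) in Atg7 KO livers. Col6a2 was not called (0.42 ± 0.16, adjusted p = 0.06), and its probes were not detected on any control array. In Olig1-Cre livers none of the 3 was called, with log2 fold changes from 0.11 to 0.37. The Col6a1 call was lost on leaving out any of Atg7 KO replicates 1 and 3 and control replicates 1 to 3 (adjusted p at most 0.0795), and the Col14a1 call without Atg7 KO replicate 1 or control replicate 3 (at most 0.0546).

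Among the elastic fibre and adhesive glycoproteins 4 of 5 tested members rose in Atg7 KO livers. Thbs2, a matricellular thrombospondin, measured 7.34, 6.43, 6.33 and 5.99 in Atg7 KO livers, 5.89, 5.45, 5.77 and 6.14 in Olig1-Cre livers, and 4.70, 4.97, 4.69 and 5.33 in controls. Both Cre groups lay above all controls, 2 of which did not detect the probe. The log2 fold change was 1.59 ± 0.27 in Atg7 KO livers (SE, adjusted p = 0.00129, limma) and 0.89 ± 0.19 in Olig1-Cre livers (adjusted p = 0.0108, a call lost with arrays scaled to the probes detected on all of them, 0.50, adjusted p = 0.122). Eln, which codes for elastin, measured 7.06, 6.52, 6.59 and 5.45 in Atg7 KO livers, 4.92, 4.75, 5.32 and 4.96 in Olig1-Cre livers, and 4.54, 4.73, 5.25 and 5.21 in controls. It rose in Atg7 KO livers (1.47 ± 0.31, adjusted p = 0.00445), and the Olig1-Cre livers lay among the controls (0.05 ± 0.19, adjusted p = 0.865), 2 of which did not detect it. Sparc, a collagen-binding glycoprotein, rose by 1.37 ± 0.26 (adjusted p = 0.00276), and Mgp, an inhibitor of calcification, by 1.14 ± 0.30 (adjusted p = 0.0131) in Atg7 KO livers.

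Fn1, fibronectin, which hepatocytes also secrete into plasma, went the other way. It measured 9.10, 9.06, 9.03 and 8.93 in Atg7 KO livers, 8.17, 8.64, 8.28 and 8.78 in Olig1-Cre livers, and 9.21, 9.05, 9.62 and 9.49 in controls. All Olig1-Cre livers lay below all other livers, and the Atg7 KO livers overlapped the controls. The gene fell by 0.87 ± 0.18 on the log2 scale in Olig1-Cre livers (SE, adjusted p = 0.00968, limma) and was not called in Atg7 KO livers (-0.31 ± 0.15, adjusted p = 0.119). With arrays scaled to 1 median of all probes the Olig1-Cre call was lost (-0.37, adjusted p = 0.402) and the Atg7 KO difference turned positive (0.38), whereas scaled to the probes detected on all arrays Fn1 was called lower in Atg7 KO livers (-0.48, adjusted p = 0.0415). Set directly against Olig1-Cre livers, Atg7 KO livers were at 0.56 ± 0.15 (adjusted p = 0.151).

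The small proteoglycans, which coat collagen fibrils, rose in 2 of 3 members in Atg7 KO livers. Lum measured 9.36, 8.59, 8.11 and 8.11 in Atg7 KO livers, 7.75, 7.19, 7.21 and 8.11 in Olig1-Cre livers, and 6.58, 6.74, 7.21 and 7.47 in controls. Atg7 KO livers lay above all controls, and Olig1-Cre livers overlapped them. Lum rose by 1.55 ± 0.29 (SE, adjusted p = 0.00244, limma) and Bgn by 1.13 ± 0.24 (adjusted p = 0.00417) in Atg7 KO livers. In Olig1-Cre livers Lum was not called (0.57 ± 0.25, adjusted p = 0.135) and Bgn rose by 0.56 ± 0.16 (adjusted p = 0.0314), a call lost without Olig1-Cre replicate 1, 3 or 4 or control replicate 1 or 2 (at most 0.0873), and under both median scalings (0.0656 and 0.113). On the median of its probes, Dcn was not called in either group (0.14 ± 0.23 in Atg7 KO and 0.19 ± 0.25 in Olig1-Cre livers). Its brightest probe was called higher in Atg7 KO (0.63 ± 0.19, adjusted p = 0.0302, limma over all probes) and in Olig1-Cre livers (0.57 ± 0.18, adjusted p = 0.0463). Another probe lay lower, uncalled, in both (-0.23 and -0.22).

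Both cross-linking enzymes tested rose in Atg7 KO livers. Lox, the lysyl oxidase that stabilises collagen and elastin fibres, measured 6.57, 6.12, 6.28 and 4.83 in Atg7 KO livers, 5.32, 5.04, 4.82 and 4.89 in Olig1-Cre livers, and 4.24, 4.29, 4.70 and 4.24 in controls. Every array of both Cre groups detected it and no control array did. Atg7 KO livers held at least 2.26-fold more (adjusted p = 0.00368, limma) and Olig1-Cre livers at least 1.19-fold more (adjusted p = 0.017, and 0.0523 without Olig1-Cre replicate 1). Those minimum folds hold for quantile-normalized values. With arrays scaled to 1 median of the probes detected on all of them both calls were lost, and the measured log2 difference was 0.96 in Atg7 KO livers (adjusted p = 0.0709) and 0.04 in Olig1-Cre livers (adjusted p = 0.913). Loxl1, which cross-links elastin, rose by 1.23 ± 0.36 in Atg7 KO livers (SE, adjusted p = 0.0224), where replicate 4 (6.35) was barely above the highest control (6.31). That call was lost without Atg7 KO replicate 3 or control replicate 1 (adjusted p at most 0.052).

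The metalloproteinases and their inhibitors rose in 4 of 5 members in Atg7 KO livers. Timp1, a secreted inhibitor of matrix metalloproteinases and a common readout of stellate cell activation, measured 7.13, 6.69, 6.94 and 6.33 in Atg7 KO livers, 6.27, 5.85, 5.78 and 5.95 in Olig1-Cre livers, and 4.32, 4.26, 4.26 and 4.42 in controls. The 3 groups were fully separate, both probes were detected on all 8 arrays of the Cre groups, and neither on a control array. Atg7 KO livers held at least 4-fold more Timp1 signal than controls (adjusted p = 4.78e-06, limma) and Olig1-Cre livers at least 2.28-fold more (adjusted p = 0.000114). Those minimum folds hold for quantile-normalized values. With arrays scaled to 1 median of the probes detected on all of them, the log2 difference was 1.87 in Atg7 KO (adjusted p = 0.000478) and 1.04 in Olig1-Cre livers (adjusted p = 0.0191). Mmp2, a gelatinase of mesenchymal cells, measured 9.34, 7.84, 7.76 and 7.22 in Atg7 KO livers, 7.42, 6.64, 6.92 and 7.24 in Olig1-Cre livers, and 5.96, 5.83, 6.45 and 5.90 in controls. Both Cre groups lay above all controls. Mmp2 rose by 2.00 ± 0.38 (SE, adjusted p = 0.00242) in Atg7 KO livers and by 1.02 ± 0.20 (adjusted p = 0.00759) in Olig1-Cre livers.

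Timp2 rose by 1.32 ± 0.29 in Atg7 KO livers (SE, adjusted p = 0.00514, limma) and by 0.38 ± 0.12 in Olig1-Cre livers (adjusted p = 0.0476), the second a call lost on leaving out any 1 liver but Olig1-Cre replicate 2 (adjusted p at most 0.129), with chip as a block (0.0576) and under the detected-probe scaling (0.074). Mmp14, a membrane-bound activator of Mmp2, rose by 0.46 ± 0.13 in Atg7 KO livers (adjusted p = 0.0227), and not without Atg7 KO replicate 1 or control replicate 2 or 4 (at most 0.0647). Under the detected-probe scaling the Mmp14 difference was 0.02 (adjusted p = 0.915). These Mmp14 values are medians of 2 probes that did not move together. The probe detected on all 12 arrays gave 1.04 ± 0.21 in Atg7 KO livers (adjusted p = 0.00363, limma over all probes). The other, detected on 5 arrays, gave -0.12 ± 0.15 (adjusted p = 0.592). Timp3 was not called in either group (0.07 ± 0.17 in Atg7 KO and -0.33 ± 0.13 in Olig1-Cre livers).

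**Figure D2:**
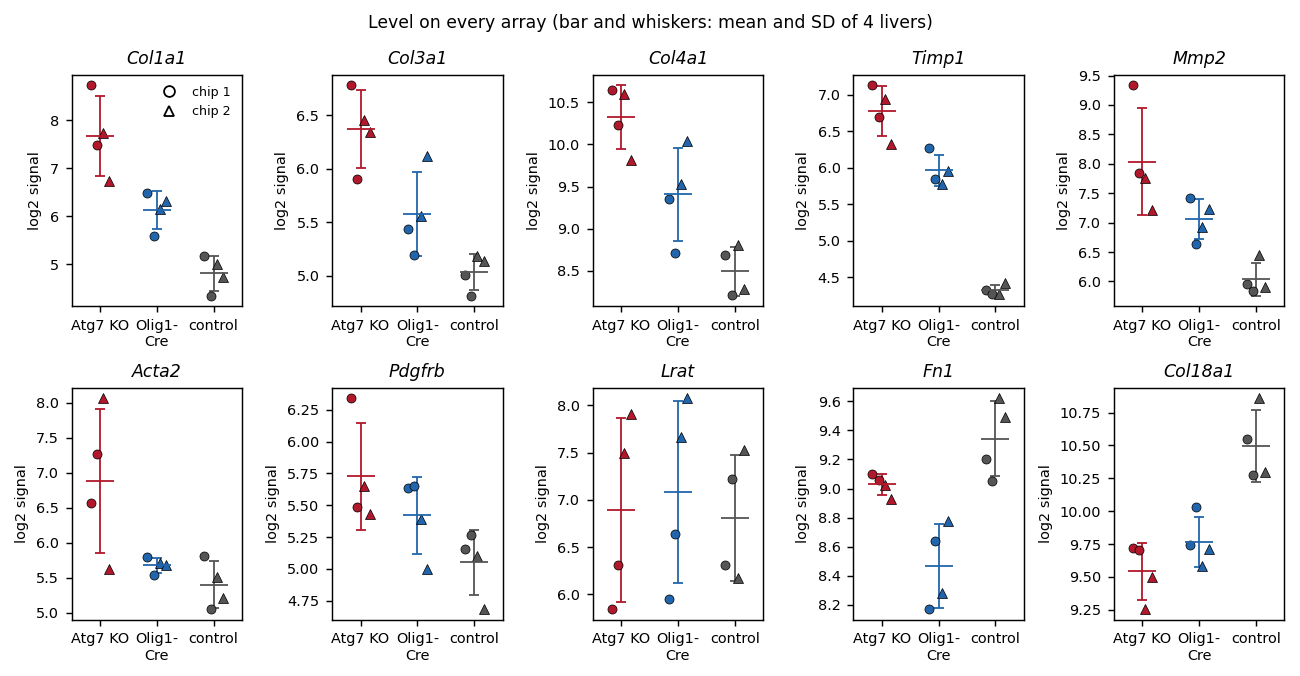
Log2 signal of 10 members on each array, circles for chip 1 and triangles for chip 2, with the mean and SD of the 4 livers of each group; each panel has its own scale. Col1a1 and Timp1 separate the 3 groups, Acta2 is raised in 3 of the 4 Atg7 KO livers, Lrat overlaps throughout, and Fn1 is lowest in Olig1-Cre livers.

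The contractile and intermediate filament genes mark the myofibroblast state. Acta2, smooth muscle actin, measured 6.58, 7.27, 8.06 and 5.63 in Atg7 KO livers, 5.80, 5.54, 5.71 and 5.68 in Olig1-Cre livers, and 5.82, 5.05, 5.52 and 5.22 in controls. Atg7 KO replicates 1 to 3 were above all other livers and replicate 4 was within the control range. The log2 fold change was 1.48 ± 0.43 (SE, adjusted p = 0.0215, limma), lost without Atg7 KO replicate 2 or control replicate 2 or 4 (at most 0.0593), and 0.28 ± 0.17 (adjusted p = 0.257) in Olig1-Cre livers. Vim, vimentin of mesenchymal cells, rose by 1.48 ± 0.21 in Atg7 KO livers (adjusted p = 0.000421) and by 0.76 ± 0.13 in Olig1-Cre livers (adjusted p = 0.00517). Tagln, an actin-binding protein of smooth muscle, was not detected in controls and Atg7 KO livers held at least 1.22-fold more (adjusted p = 0.0112). In Olig1-Cre livers, 3 of which detected it, Tagln ran from 4.57 to 4.80, against 4.23 to 4.40 in controls, and was called higher (adjusted p = 0.0356) with no minimum fold above 1. That call was lost on leaving out any 1 liver but Olig1-Cre replicate 2 (at most 0.106). Scaled to 1 median of the probes detected on all arrays, the measured Tagln difference was 0.00 in Atg7 KO livers (adjusted p = 0.993) and turned to -0.23 in Olig1-Cre livers (adjusted p = 0.451), with both calls lost. The Olig1-Cre call was also lost with arrays scaled to 1 median of all probes (adjusted p = 0.117). Des, the desmin of stellate and muscle cells, measured 5.94, 5.63, 6.39 and 5.60 in Atg7 KO livers, 5.57, 5.98, 5.58 and 5.68 in Olig1-Cre livers, and 5.54, 5.79, 5.88 and 6.05 in controls. The groups overlapped, and Des was not called (0.08 ± 0.19 in Atg7 KO and -0.11 ± 0.15 in Olig1-Cre livers).

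Of the stellate cell receptors and markers, both PDGF receptors were called higher in Atg7 KO livers. Lrat and Reln were not called on their gene values, though the bright Reln probe was. Pdgfrb, the PDGF receptor of stellate cells, measured 6.34, 5.49, 5.65 and 5.43 in Atg7 KO livers, 5.63, 5.65, 5.40 and 5.0 in Olig1-Cre livers, and 5.16, 5.27, 5.10 and 4.68 in controls. Atg7 KO livers lay above all controls, replicate 1 well above the others, and Olig1-Cre livers overlapped the controls, 1 of which did not detect it. Pdgfrb rose by 0.67 ± 0.21 in Atg7 KO livers (SE, adjusted p = 0.0322, limma), a call lost on leaving out any of Atg7 KO replicates 1 and 3 and control replicates 3 and 4 (at most 0.0842), and under the detected-probe scaling (0.35, adjusted p = 0.305). Pdgfra, its alpha partner, rose by 1.04 ± 0.26 (adjusted p = 0.0112) in Atg7 KO livers and by 0.60 ± 0.13 (adjusted p = 0.0115) in Olig1-Cre livers.

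Lrat, the enzyme that makes retinyl esters and a marker of quiescent stellate cells, measured 5.84, 6.31, 7.5 and 7.91 in Atg7 KO livers, 5.95, 6.64, 7.67 and 8.07 in Olig1-Cre livers, and 6.31, 7.22, 6.18 and 7.53 in controls. In each Cre group the pair on chip 2 (replicates 3 and 4) was above the pair on chip 1, and the groups overlapped. Lrat was not called in Atg7 KO livers (0.08 ± 0.46, adjusted p = 0.906, limma) or in Olig1-Cre livers (0.27 ± 0.46, adjusted p = 0.708). Within chip 1 the Atg7 KO livers were below controls (-0.69, adjusted p = 0.231) and within chip 2 above them (0.85, adjusted p = 0.226). Reln, the secreted reelin used as a stellate marker in mouse liver, measured 4.58, 4.39, 5.30 and 4.96 in Atg7 KO livers, 4.41, 4.72, 4.87 and 5.14 in Olig1-Cre livers, and 4.37, 4.34, 4.66 and 4.5 in controls. These medians lie near the detection limit, the groups overlapped, and Reln was not called (0.34 ± 0.19, adjusted p = 0.2, in Atg7 KO livers). Its bright probe, detected on all 12 arrays, was called higher in Atg7 KO livers (0.88 ± 0.21, adjusted p = 0.0102, limma over all probes).

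Of a wider list of 10 stellate cell markers, 4 of them members, 9 were tested. In Atg7 KO livers Pdgfrb, Cygb and Rgs5 rose and none fell (median log2 fold change 0.31), and in Olig1-Cre livers Colec11, Cygb and Rgs5 rose (median 0.32). Their summed linear signal was 662 to 1290 in Atg7 KO livers, 977 to 1520 in Olig1-Cre livers and 576 to 974 in controls. The sum takes the median of a gene's probes, so Reln enters it near the detection limit. The bright Reln probe, left out in this way, averaged 11.11 in Atg7 KO, 10.44 in Olig1-Cre and 10.24 in control livers (log2). The overlap of these sums therefore depends on the choice of Reln probe. Of 6 myofibroblast markers, 4 of them members, 5 were tested, and Acta2, Col1a1, Tagln and Timp1 rose in Atg7 KO livers (median 1.48), all but Acta2 also in Olig1-Cre livers (median 0.38). Their summed signal was 216 to 670 in Atg7 KO livers, 126 to 213 in Olig1-Cre livers and 43.7 to 97.7 in controls, with no overlap of Atg7 KO livers and controls. Of all genes 19.5% were called higher in Atg7 KO livers and 12.8% in Olig1-Cre livers. The difference between both lists was not tested.

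Where a gene had several probes, they did not always move together. For Acta2 the brightest of 4 detected probes averaged 9.93 in Atg7 KO, 8.46 in Olig1-Cre and 7.66 in control livers, which rose by 2.27 ± 0.44 on the log2 scale (SE, adjusted p = 0.00328, limma over all probes) in Atg7 KO and 0.80 ± 0.22 (adjusted p = 0.0317) in Olig1-Cre livers. The other 3 gave 1.15 to 1.66 in Atg7 KO livers. For Reln a single bright probe averaged 11.11 in Atg7 KO, 10.44 in Olig1-Cre and 10.24 in control livers (0.88 ± 0.21, adjusted p = 0.0102, in Atg7 KO livers), while the other detected probes were near the limit. The brightest probes of Dcn (0.63 ± 0.19, adjusted p = 0.0302), Timp3 (0.83 ± 0.21, adjusted p = 0.0121) and Col6a2 (0.73 ± 0.22, adjusted p = 0.0261) were likewise called higher in Atg7 KO livers, in contrast to the medians of these genes. Of Sparc, the dimmest probe was flat (-0.03 ± 0.51) and the brightest gave 1.82 ± 0.24 (adjusted p = 0.000317). With the brightest probe of each gene, 31 members were called higher and 1 lower in Atg7 KO livers (20.5% and 15.2% of all genes). Which transcripts each probe hits was not tested.

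**Figure D3:**
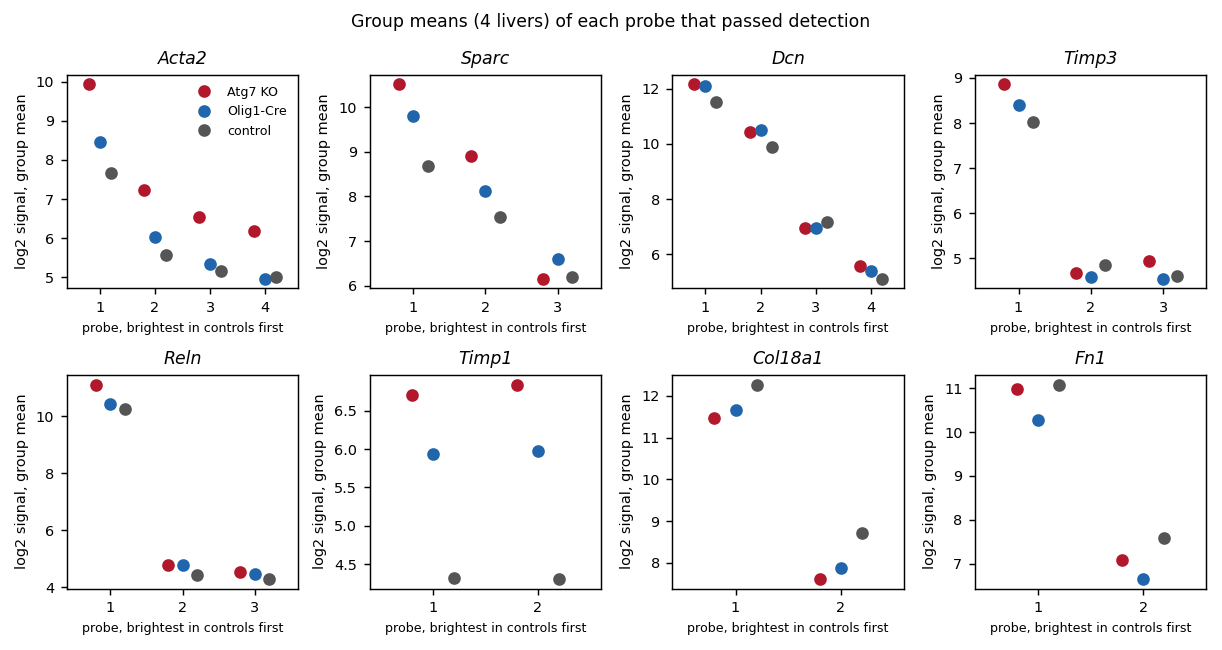
Group means of every probe that passed detection for 8 members, probes in order of their brightness in controls, with Atg7 KO red, Olig1-Cre blue and control grey. The brightest probes of Acta2, Timp3 and Reln are raised in Atg7 KO livers more than the dim ones, while both Col18a1 probes are lowest in Atg7 KO livers.

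The Atg7 KO livers differed among themselves more than the controls did. Over the 35 tested members, the median difference from the control mean was 1.64, 1.05, 1.40 and 0.51 for the Atg7 KO group, 0.48, 0.20, 0.44 and 0.69 for the Olig1-Cre group, and -0.13, -0.11, 0.11 and 0.10 for controls (replicates 1 to 4 in order). Replicate 1 was the highest Atg7 KO liver for 24 of the 35 members and replicate 4 the lowest for 25. Replicate 4 was at the level of the Olig1-Cre livers. Replicate 3 was the highest Atg7 KO liver for 8 members, Acta2, Tagln, Des, Col1a2, Lamc1, Sparc, Mmp14 and Reln.

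**Figure D4:**
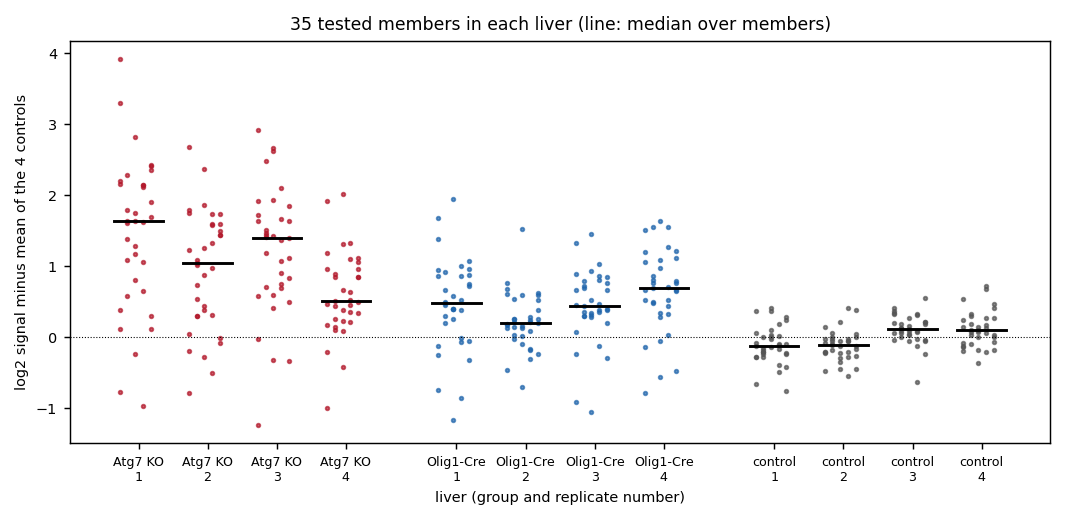
Log2 signal of each tested member minus its mean in the 4 controls, for every liver, with the median over members as a line. Atg7 KO replicates 1 to 3 stand at 1.05 to 1.64, replicate 4 at 0.51 among the Olig1-Cre livers (0.20 to 0.69), and the controls around 0.

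Atg7 KO and Olig1-Cre livers were also compared directly, since both were set against the same controls. No member was called (limma), against 0.0747% of all genes called higher and 0.084% lower, while 21 of the 35 had an unadjusted p under 0.05, as did 14.4% of all genes. The median log2 fold change was 0.59, 32 members lay higher in Atg7 KO livers (49.3% of all genes), and 6 had all 4 Atg7 KO livers above all 4 Olig1-Cre livers (4.37% of all genes). The largest was Col1a1 (1.54 ± 0.37, SE, adjusted p = 0.134), followed by Eln (1.42 ± 0.30, adjusted p = 0.0958) and Acta2 (1.20 ± 0.42, adjusted p = 0.241). A fit of all 12 arrays called Eln (adjusted p = 0.0488), with 0.252% of all genes higher and 0.233% lower. Without Atg7 KO replicate 4, 3 members were called, Eln (1.74, adjusted p = 0.0149), Lox (1.3, adjusted p = 0.0308) and Vim (0.94, adjusted p = 0.0308). In that fit 0.103% of all genes were called higher and 0.0467% lower. Leaving out any other liver called no member.

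Lists of other genes of the matrix and its signals, 179 genes of which 116 were tested, held 54 that rose and 8 that fell in Atg7 KO livers (median log2 fold change 0.53), and 33 and 5 in Olig1-Cre livers (median 0.25). Of all genes 19.5% were called higher and 15.3% lower in Atg7 KO livers, and 12.8% and 8.47% in Olig1-Cre livers. Ligands and receptors of TGF beta and PDGF, which activate stellate cells, rose in 11 of 13 tested genes in Atg7 KO livers and in 8 of 13 in Olig1-Cre livers. Pdgfb averaged 6.70 ± 0.31 in Atg7 KO, 6.11 ± 0.38 in Olig1-Cre and 4.86 ± 0.42 in control livers (SD, n = 4 each), and rose in both Cre groups (log2 fold changes 1.84, adjusted p = 0.000184, and 1.26, adjusted p = 0.00713, limma). Pdgfc, which 1 control array detected, rose likewise (1.81, adjusted p = 0.000113, and 1.37, adjusted p = 0.00151). Ccn2, the connective tissue growth factor, averaged 10.15 ± 1.03 in Atg7 KO, 8.56 ± 0.45 in Olig1-Cre and 8.24 ± 0.43 in control livers and rose in Atg7 KO livers (1.91, adjusted p = 0.00711).

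Among other proteases and their inhibitors 9 of 15 tested genes rose in Atg7 KO livers and none fell, against 19.5% and 15.3% of all genes. Plat, the tissue plasminogen activator, averaged 8.42 ± 0.57 in Atg7 KO, 6.24 ± 0.94 in Olig1-Cre and 4.39 ± 0.26 in control livers (SD, n = 4 each; 4.03, adjusted p = 3.58e-06, and 1.85, adjusted p = 0.0106, limma). Of the controls 1 array detected Plat, so its control level is mostly below detection and both differences depend on the offset. Mmp12, the elastase of macrophages, averaged 8.27 ± 0.20 in Atg7 KO, 8.25 ± 0.25 in Olig1-Cre and 4.39 ± 0.06 in control livers, where no array detected it. Its signal was at least 11.3-fold that of controls in Atg7 KO livers (adjusted p = 2.23e-08) and at least 11.1-fold in Olig1-Cre livers (adjusted p = 8.32e-07). Mmp13, the mouse interstitial collagenase, detected on 2 control arrays, rose by 2.31 (adjusted p = 1.96e-05) and 2.53 (adjusted p = 4.17e-06).

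Of other matrix glycoproteins and proteoglycans 11 of 24 tested genes rose in Atg7 KO livers, with Lama5 at least 2.48-fold higher (adjusted p = 0.000153, limma) and Nid1, which links laminin to type IV collagen, up by 1.55 (adjusted p = 7.23e-05). Of 8 other collagens tested 3 rose and 1 fell, led by Col4a5 (1.64, adjusted p = 0.000597). Of the collagen-processing genes 5 of 15 rose, including the collagen chaperone Serpinh1 (1.05, adjusted p = 0.00324), and 3 fell. Over all genes 19.5% were called higher and 15.3% lower in Atg7 KO livers, the shares to set beside each count in this paragraph. Matrix receptors rose in 7 and fell in 2 of 18, with the collagen receptor Ddr1 up by 2.79 (adjusted p = 9.25e-06), and other contractile genes rose in 4 of 10, with Tpm1 up by 1.83 (adjusted p = 1.39e-05). Of 13 other stellate cell genes 4 rose and 2 fell, Cygb rising by 1.20 (adjusted p = 0.0138) and Angptl6 falling by 1.6 on the log2 scale (adjusted p = 0.000511).

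Markers of other liver cells rose in some lists and fell or were mixed in others. Of portal fibroblasts, which make matrix around bile ducts, 3 of 4 markers outside the members and the other lists rose, and their summed linear signal was 1530 to 2340 in Atg7 KO, 641 to 1450 in Olig1-Cre and 390 to 588 in control livers. A linear sum follows its brightest gene, here Gas6 (log2 means 10.43, 9.65 and 8.66, groups in that order), whereas Thy1 averaged 5.7, 5.96 and 5.12. Macrophage markers rose in 3 of 4 tested genes (664 to 919 in Atg7 KO, 597 to 1180 in Olig1-Cre and 397 to 555 in control livers), with Cd68 and Cd5l not tested. Cholangiocyte markers rose in 2 of 3 (214 to 353, 92.3 to 172 and 36.7 to 94, groups in the same order), with Epcam and Spp1 not tested. That sum follows Sox9 (log2 means 8.01, 6.89 and 5.78), since Krt19 was dim (5.15, 4.39 and 4.3). Hepatocyte markers fell in 3 of 6 (37100 to 41000, 41000 to 51700 and 50400 to 55500), 1 of them Alb, whose probe was dim in every group (4.69 ± 0.17 in Atg7 KO, 4.92 ± 0.40 in Olig1-Cre and 5.48 ± 0.22 in control livers, log2, SD, n = 4 each). Sinusoidal endothelial markers rose in 1 and fell in 1 of 6 (947 to 1090, 1020 to 1250 and 1170 to 1440; Kdr not tested), and Upk3b, the mesothelial marker tested, fell (4.22 to 11.4, 3.8 to 17.1 and 16.6 to 36.2). The vascular smooth muscle markers Des and Myh11 were not called (40.8 to 91.7, 36 to 54.2 and 35 to 60.1). Counts in this paragraph are for Atg7 KO against control livers, where 19.5% of all genes were called higher and 15.3% lower. The part of these cells in the members' values was not tested.

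Chip and sex were taken up in the fits. With chip as a block, 27 members were called higher and 1 lower in Atg7 KO livers (19.8% and 15.9% of all genes), and 14 and 2 in Olig1-Cre livers (12.4% and 8.01%). Within chip 1, 32 of 35 members were higher in Atg7 KO livers (21 called higher, against 10.6% of all genes, and 0 lower; median 1.46). Within chip 2 likewise 32 were higher (9 called higher, against 8.66% of all genes, and 1 lower; median 0.80). Against the single male control the median was 1.34, again with 32 members higher. Atg7 KO livers were all male, so with sex as a covariate their differences were again those from that control. It was the liver with the fewest probes detected. With sex as a covariate 14 were called higher and 1 lower (12.2% and 7.98% of all genes). In a fit of that kind Col1a1 (2.5, adjusted p = 0.0158, limma) and Timp1 (2.46, adjusted p = 0.000547) kept their calls, whereas Acta2 (1.07, adjusted p = 0.293), Pdgfrb (0.57, adjusted p = 0.267) and Col1a2 (1.34, adjusted p = 0.147) did not. In Olig1-Cre livers 31 members were higher within chip 1, where 0 were called, as were 0.149% of all genes higher and none lower, so that no reading of the members follows. Within chip 2, 30 were higher (4 called higher and 2 lower, against 7.16% and 4.34% of all genes). The single male Olig1-Cre liver had 27 members above the single male control, with Col1a1 at 0.41 and Timp1 at 1.53, values without replicates.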

How the data were processed

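Total RNA of 12 livers was hybridised to MouseWG-6 v2.0 bead arrays. The authors deposited intensity values and a detection p-value per probe as exported from GenomeStudio, together with log2 values for the whole series. The submitters' notes also name limma, at version 3.22.1. The methods name cubic spline normalization in GenePattern, the median of a gene's probes, and a t-test. Here the function neqc (offset 16, limma 3.58.1, R 4.3.3, data.table version 1.17.8) removed background and equalised quantiles. Its output lay within 0.027 of the deposited log2 values (median difference 0.000231). Of 45281 probes, 34885 have 1 gene symbol in the platform annotation, 18 several and 10378 none. Probes with a detection p under 0.05 on at least 4 of 12 arrays were kept (19528), and the 16727 of them with 1 symbol gave 10711 genes.

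Each pair of groups was fitted with limma on its 8 arrays without covariates. With 4 livers in each group, 70 relabellings exist, and the smallest two-sided p of an exact permutation test is 0.0286. The labels do not tie livers to litters, so p-values reflect only how these particular livers vary. Precision is limited by the 4 arrays of a group.

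Replicates were numbered in accession order. The fit was tested on simulated data. Alternatives were other normalizations, detection filters and probe choices, sex, chip and line, 1 fit of all arrays, the methods' t-test, and leaving out each liver. Values on every array are given for members fixed for their roles, the 8 called members with the largest separated change in Atg7 KO livers, members called lower and the 3 largest changes in Olig1-Cre livers. Of other lists, up to 3 called genes with the largest change are named. Eln and the probes shown were added after their values were seen. The members and lists were chosen with earlier results of these data known. No column of another sample was used. Summed levels are linear signals above the offset.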

Additional observations from a re-analysis of the deposited data

Results flagged for a closer look

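In 7 of 219 groups (73 genes in 3 groups each), 1 liver stood apart from the other 3 of its group by more than Dixon's limit of 0.829 for the share of the range, and chance flags about 1 in 20 groups. Among the members, Vim was lowest in Atg7 KO replicate 4 (7.19, the next liver at 7.98 and the highest at 8.08, log2). Lox was highest in control replicate 3 (4.70, the next at 4.29), where no control array detected its probe. Loxl1 was lowest in control replicate 1 (5.93, the next at 6.26), the liver without which its call in Atg7 KO livers was lost. Among the other genes, Pdgfb was highest in Atg7 KO replicate 1 (7.16, the next at 6.58) and Itgb6 lowest in Atg7 KO replicate 4 (4.96, the next at 5.80). Alb was lowest in Atg7 KO replicate 2 (4.44, the next at 4.75), and Lyve1 highest in control replicate 4 (7.08, the next at 6.50).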

How the results depend on the processing

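Against the 27 members called higher and 1 lower in Atg7 KO livers, the counts were 14 higher with sex as a covariate, 17 with the controls of the same line, and 9 with chip 2 or males alone, and 0 lower within chip 1. Against the 13 higher and 2 lower in Olig1-Cre livers, 8 were higher with no detection filter and by the methods' t-test, 6 in 1 fit of all 12 arrays and with same-line controls (0 lower), 4 within chip 2, and 0 either way within chip 1 or in males. Within chip 1, 16 genes of 10711 were called higher and 0 lower in Olig1-Cre livers, and in males, 1 liver against 1 control with the spread taken from the Atg7 KO males, 24 and 4, so these fits say nothing on how stable the members' calls are. Leaving out 1 liver gave 6 to 19 higher in Olig1-Cre livers (6 without Olig1-Cre replicate 1, 7 without Olig1-Cre replicate 3 or 4 or control replicate 2) and, between Atg7 KO and Olig1-Cre livers, 0 to 3, the 3 without Atg7 KO replicate 4; 1 fit of all arrays called 1 member there. Of all genes, 12.2% were called higher in Atg7 KO livers with sex as a covariate, 13.7% with same-line controls and 8.66% within chip 2. In Olig1-Cre livers the shares were 4.5% with no detection filter, 7.17% by the t-test and 13.6% in 1 fit of all arrays. They were 4.6% with same-line controls, 7.16% within chip 2 and 7.12% to 16.8% on leaving out 1 liver. Fits on fewer livers have fewer residual degrees of freedom, and any other cause was not tested. Scaling arrays to 1 median of all probes moved the median of all genes to 0.59 in Atg7 KO livers (4854 higher and 163 lower, against 2088 and 1644) and to 0.40 in Olig1-Cre livers (1734 and 38, against 1366 and 907), and no member was then called lower in either group (0). Scaling to probes detected on all arrays moved it to -0.27 (1182 and 3145) and -0.21 (705 and 1156), with 2 members called lower in Atg7 KO livers and 8 higher in Olig1-Cre livers. Of the called members, Tagln alone turned direction in these alternatives (-0.23 in Olig1-Cre livers, detected-probe median). Of the uncalled members given array by array (Col1a2 and Col3a1 gained Olig1-Cre calls with chip as a block), those that turned in Atg7 KO against control livers were Fn1 (0.38, all-probe median), Des (-0.08) and Reln (-0.34, detected-probe median), Lrat within chip 1 (-0.69), and on leaving out 1 liver Des (-0.09 to 0.17) and Lrat (-0.26 to 0.43). In Olig1-Cre against control livers they were Des (0.34, all-probe median; 0.11, chip 1; 0.44, males), Reln (-0.24, detected-probe median), Acta2 (-0.28, males), Eln (-0.35, detected-probe median; -0.09, chip 2; -0.08 to 0.16, leaving out 1 liver) and Lrat (-0.47, chip 1; -0.29, same line; -0.06 to 0.65, leaving out 1 liver). Between Atg7 KO and Olig1-Cre livers they were Lrat (0.08, all-probe median; 0.25, sex covariate and males; -0.57 to 0.16, leaving out 1 liver), Reln (-0.10, detected-probe median; -0.08, chip 1; -0.14 to 0.16, leaving out 1 liver) and Des (-0.09, sex covariate and males). No paired analysis was possible because the labels give no replicate numbers. Dim probes limit Col1a2, Col6a2, Lox, Timp1 and Tagln, which no control array detected.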
